A study of Homo sapiens with 8 samples.

Results

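Contacts that the region upstream of *HBD* makes with itself were read from CAPTURE-3C-seq lists of wild-type (WT) and BCL11A knockout (BCL11A KO, or KO) HUDEP-2 cells. The region ran from the *HBD* transcription start site to 5.5 kb upstream of it (chr11:5255713-5261213, hg19). A contact was counted when the midpoints of both ends lay in this region and the ends started 500 bp or more apart. These internal contacts numbered 228 of the 5276 distinct pairs of both lists together, with 162 of 2966 in WT and 66 of 2310 in BCL11A KO. HUDEP-2 cells are immortalized erythroid progenitors of human origin with an adult pattern of globin expression, and the KO line lacks BCL11A. The labels do not say whether the KO line is 1 clone. Both lines expressed biotin-tagged dCas9 with sgRNAs against several bait regions of the locus, and for this region the design names sgRNA sites 1, 1.5 and 3.5 kb upstream of *HBD*. The labels describe culture in expansion medium (StemSpan SFEM with SCF, EPO, dexamethasone and doxycycline), whereas the methods describe erythroid differentiation before the cells were collected.

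In CAPTURE-3C-seq, chromatin held together in the nucleus is cut and ligated, the fragments bound by dCas9 are purified, and each sequenced ligation product gives a pair of genomic positions. *HBD* encodes δ-globin, a minor adult β-like globin, and lies between the fetal *HBG1* and *HBG2* (γ-globin) genes and the adult *HBB* gene. BCL11A is a zinc finger repressor of *HBG1* and *HBG2* in adult erythroid cells, and deletions that include DNA upstream of *HBD* are known from people in whom fetal hemoglobin persists. The locus control region (LCR) upstream of *HBE1* is the enhancer cluster of the locus.

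The authors merged 3 biological replicates per genotype into 1 list. Only these merged lists were used and the single-replicate samples were not analysed here, so no value has a replicate error, and the tests compare these 2 libraries rather than the genotypes. Intervals and tests cover counting error only, and pairs that share an end are not independent. The lists give no read number per pair, so each distinct pair was counted once and the sequencing depth of each library is unknown. A count of 3 pairs, taken as the floor, was 1.85% of the internal contacts in WT and 4.55% in KO. Each pair carries a Bayes factor (BF) score from the authors, capped at 150. All 162 and 66 internal contacts had the highest score, which 89.7% of all pairs had in WT and 88.3% in KO.

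The region begins where the canonical *HBD* transcript starts (5254068 to 5255713, on the minus strand). It is also spanned by an intron of the longer transcript HBD-204 (5254068 to 5264887), and the transcript HBD-203 has an exon at 5256445 to 5256600. This exon falls in the window of the 1 kb site (chr11:5256213-5257213). The window of the 2.5 kb site (chr11:5257713-5258713) and that of the 3.5 kb site (chr11:5258713-5259713) hold no annotated exon. The stretch between the 1 kb and 2.5 kb windows is called the gap here, and the part past the 3.5 kb window, away from *HBD*, is called the far part. The restriction enzyme of these libraries is not given in the sources used here. Of 263 distinct ends of internal contacts in WT, 19 started or ended exactly at a GATC, and at most 3 did when the ends were shifted by a few bases. In KO it was 11 of 87, and at most 1. The sequence between neighbouring GATC sites was therefore used as a second unit beside the windows.

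Of the ends that most internal contacts used, 3 are shown to make the repeated anchors visible. Each is a 42-bp stretch of the hg19 plus strand, with the GATC at its border in capitals.

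End at chr11:5257743-5257784 (2.5 kb window): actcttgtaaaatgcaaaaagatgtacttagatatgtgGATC
End at chr11:5257847-5257888 (2.5 kb window): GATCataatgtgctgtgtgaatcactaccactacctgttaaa
End at chr11:5257363-5257404 (gap): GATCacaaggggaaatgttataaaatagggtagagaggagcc

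Each of these stretches occurred at 1 place in the genome sequence. They are not all of the repeated ends, so where they lie does not show where repeated anchors lie in the region.

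Fewer internal contacts were listed in KO than in WT, while the shortest pairs of the same region were similar in number and a larger share of all pairs in KO. WT had 162 internal contacts (exact Poisson 95% interval 138 to 189) and KO had 66 (51.0 to 84.0). They made up 5.46% of all distinct pairs in WT (Wilson 95% interval 4.70 to 6.34) and 2.86% in KO (2.25 to 3.62), a ratio of shares of 0.523 (two-sided Fisher's exact test, p = 3.03e-06, adjusted over 4 comparisons p = 4.03e-06). Pairs within the region but under 500 bp apart numbered 673 in WT and 679 in KO, 22.7% and 29.4% of all pairs (Fisher's exact test, adjusted over 3 comparisons by distance, p = 5.58e-08). Against these short pairs, internal contacts were 19.4% in WT (16.9 to 22.2) and 8.86% in KO (7.02 to 11.1; Fisher's exact test, adjusted p = 3.81e-09).

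Other kinds of pairs served as further denominators. Pairs of the same minimum distance within the LCR (chr11:5295175-5313675) numbered 264 in WT and 306 in KO. Set against them, internal contacts of the *HBD* region were 38.0% (33.5 to 42.7) and 17.7% (14.2 to 21.9; Fisher's exact test, adjusted p = 9.56e-10). Pairs that leave the *HBD* region fell further than internal contacts did, from 951 to 268. Of internal contacts and leaving pairs together, internal contacts were 14.6% in WT (12.6 to 16.7) and 19.8% in KO (15.8 to 24.4), an odds ratio of 1.45 (Fisher's exact test, p = 0.0258, adjusted p = 0.0258). This last direction turned when only contacts of 1000 bp or more were counted (odds ratio 0.721, p = 0.169, Fisher's exact test).

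**Figure D1:**
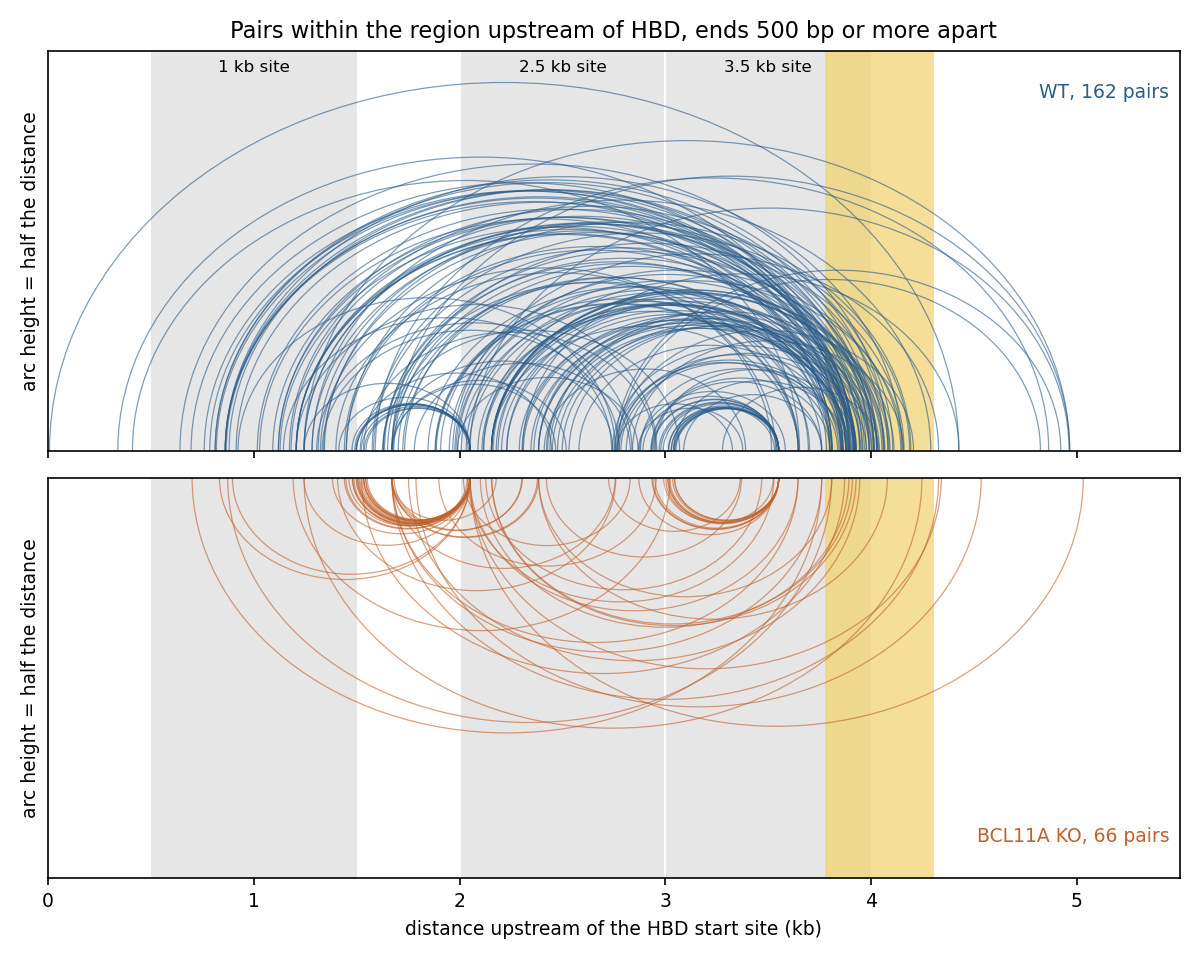
Internal contacts as arcs between the midpoints of their ends, with WT above and BCL11A KO below, against the distance upstream of the *HBD* start site in kb. Grey bands are the 1 kb windows of the 3 sites and the yellow band is the GATC interval at the outer edge of the 3.5 kb site. Of the 162 WT arcs, 100 have an end in the yellow band, where 9 of the 66 BCL11A KO arcs do.

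In the counts of all internal contacts, the difference lay in the longer contacts. The median distance between starts was 1764.5 bp in WT (interquartile range 1054 to 2601.5) and 635.5 bp in KO (541.25 to 1567.25). The longest contact spanned 4419 bp in WT and 3060 bp in KO. Contacts of 1 kb or more numbered 123 in WT, 4.15% of all pairs (3.49 to 4.93), and 25 in KO, 1.08% (0.734 to 1.59). This was a ratio of counts of 0.203 (two-sided Fisher's exact test on the shares, adjusted over 3 comparisons p = 8.42e-12). Contacts between 500 and 1000 bp numbered 39 in WT and 41 in KO, and their shares of all pairs could not be told apart (Fisher's exact test, adjusted p = 0.211). Of these shorter contacts, 19 in WT and 30 in KO used the end most used in KO or another repeated end. The similar counts therefore rest in part on these ends, and the shares of all pairs without them were not tested.

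With internal contacts as the denominator, 2 of 5 distance classes differed (40.0% of the classes tested). The class of 500 to 1000 bp was 24.1% in WT and 62.1% in KO (Fisher's exact test, adjusted p = 5.23e-07), and the class of 2 to 3 kb was 28.4% and 12.1% (adjusted p = 0.0240). Without the contacts of the end most used in KO (the end at chr11:5257743-5257784), left out after the values were seen, the class of 500 to 1000 bp passed and that of 2 to 3 kb did not (Fisher's exact test, adjusted p = 0.000641 and 0.125). The classes of 1 to 2 kb (35.8% and 22.7%) and of 3 to 4 kb (11.1% and 3.03%) did not pass (adjusted p = 0.0857 for each, Fisher's exact test). With all distinct pairs as the denominator, which was added after the values were seen, 3 of the 5 classes differed (60.0%), each lower in KO. Contacts of 1 to 2 kb numbered 58 in WT and 15 in KO (adjusted p = 0.0001, Fisher's exact test). Those of 2 to 3 kb numbered 46 and 8 (adjusted p = 3.24e-05), and those of 3 to 4 kb 18 and 2 (adjusted p = 0.00389, Fisher's exact test). A single contact, in WT, was longer than 4 kb.

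The contacts just past the minimum distance continued the short pairs. From 400 to 500 bp there were 93 pairs in WT and 98 in KO, and from 500 to 600 bp there were 21 and 26. The contacts nearest the limit were 500 bp long in both libraries, and the nearest pairs left out were 497 bp in WT and 499 bp in KO. Of the short pairs, 87.2% in WT and 82.5% in KO had both ends in 1 GATC interval. Among internal contacts this was so for 16 in WT (9.88%) and 13 in KO (19.7%). A further 12 and 22 joined neighbouring intervals, and 134 and 31 joined intervals further apart.

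**Figure D2:**
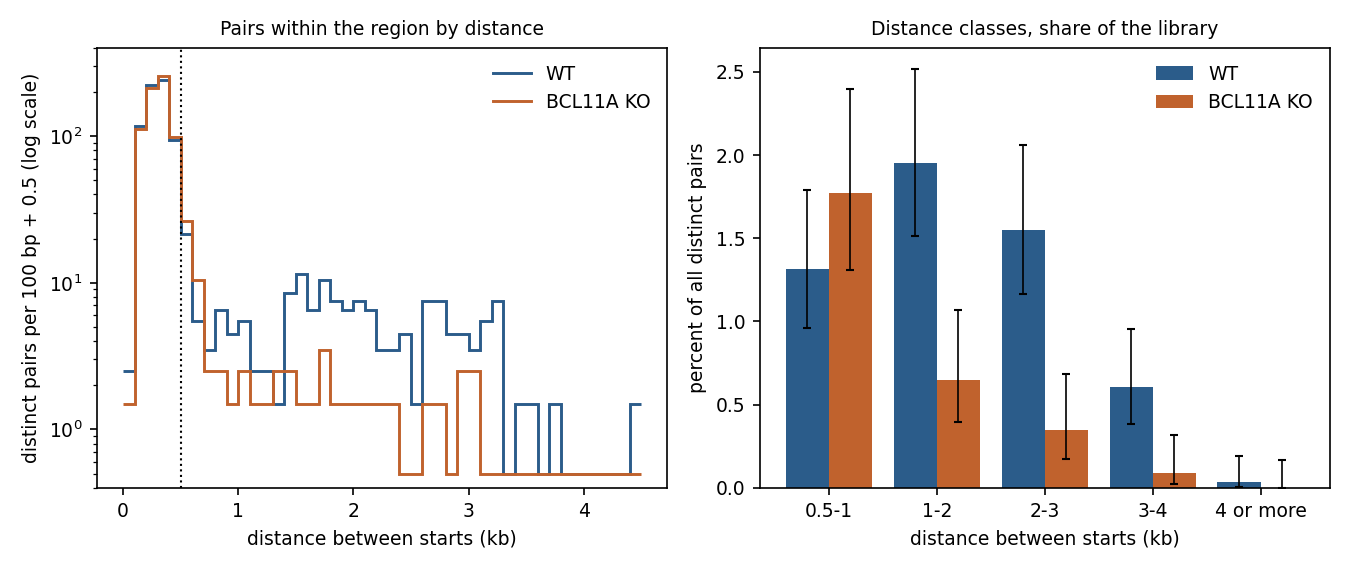
Left, distinct pairs within the region per 100 bp of distance between starts, with 0.5 added so that empty bins show on the log axis, and a dotted line at the 500 bp minimum. Right, internal contacts of each distance class as a percent of all distinct pairs of the library, with Wilson 95% intervals. The curves lie together up to 600 bp and part beyond 1 kb, where WT has 123 contacts and BCL11A KO 25.

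Links among the 3 sites were most numerous between the 2.5 kb and 3.5 kb sites in both libraries. WT had 43 such links, 26.5% of its internal contacts (20.3 to 33.8), and KO had 14, 21.2% (13.1 to 32.5). The windows of these sites touch, and 29 of the links in WT and 7 in KO were of 1 kb or more. Without contacts that have no GATC between their ends, a setting added after the values were seen, 35 links remained in WT and 8 in KO. In KO this was fewer than the 12 contacts that joined the 1 kb and 2.5 kb sites in that setting. The 1 kb and 3.5 kb sites were joined by 27 contacts in WT, 16.7% (11.7 to 23.2), and by 3 in KO, 4.55% (1.56 to 12.5), which is at the floor. The 1 kb and 2.5 kb sites were joined by 12 contacts in each library, 7.41% (4.29 to 12.5) in WT and 18.2% (10.7 to 29.1) in KO. The end at chr11:5257743-5257784 supplied 6 of these 12 contacts in WT and 10 of the 12 in KO. When pairs with the same 100-bp bins at both ends were counted once, this link held 8 pairs in WT and 5 in KO, and the link of the 1 kb and 3.5 kb sites held 15 and 3.

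As shares of internal contacts, none of these 3 links passed the test after adjustment over 13 link classes (adjusted p = 0.746, 0.105 and 0.128, two-sided Fisher's exact test). With ends placed by their start in place of their midpoint, the last of these links was higher in KO by 17.7 percentage points (13 contacts in WT and 17 in KO, Fisher's exact test, adjusted p = 0.00502). In the same setting the link of the 1 kb and 3.5 kb sites fell by 13.4 points (29 and 3 contacts, Fisher's exact test, adjusted p = 0.0415). The single class that passed (7.69% of those tested) joined the gap and the 2.5 kb site, with 10 contacts in WT (6.17%, 3.39 to 10.99) and 19 in KO (28.8%, 19.3 to 40.6; Fisher's exact test, adjusted p = 0.000162). Under the same 100-bp collapse, this class held 7 and 5 pairs and no link class passed. Nor did any without the contacts of the end at chr11:5257743-5257784, left out after the values were seen, when this class held 8 contacts in each library (Fisher's exact test, adjusted p = 0.106).

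As shares of all distinct pairs, a denominator added after the values were seen, 4 of the 13 classes passed (30.8%), each lower in KO. They were the link of the 1 kb and 3.5 kb sites (0.910% in WT and 0.130% in KO, Fisher's exact test, adjusted p = 0.00156) and that of the 2.5 kb and 3.5 kb sites (1.45% and 0.606%, adjusted p = 0.0182). The other two ended in the far part. From the 1 kb site there were 12 contacts in WT and 1 in KO (Fisher's exact test, adjusted p = 0.0303), and from the 2.5 kb site 19 and 3 (adjusted p = 0.0182). The link of the 1 kb and 2.5 kb sites was 0.405% and 0.519% of all pairs (adjusted p = 0.707, Fisher's exact test).

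Over these 3 links, 82 contacts in WT and 29 in KO joined different sites. These were 50.6% (43.0 to 58.2) and 43.9% (32.6 to 55.9) of the internal contacts, which were not distinguishable (Fisher's exact test, adjusted over 2 comparisons p = 0.384). As shares of all pairs they were 2.76% and 1.26% (Fisher's exact test, adjusted p = 0.000282). Within single windows, the 3.5 kb site had 10 contacts in WT and 7 in KO, the 2.5 kb site had 0 and 1, and the 1 kb site had none in either library. Contacts of the 500 bp next to the *HBD* start numbered 3 in WT and 0 in KO, where no difference was detectable at this depth.

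**Figure D3:**
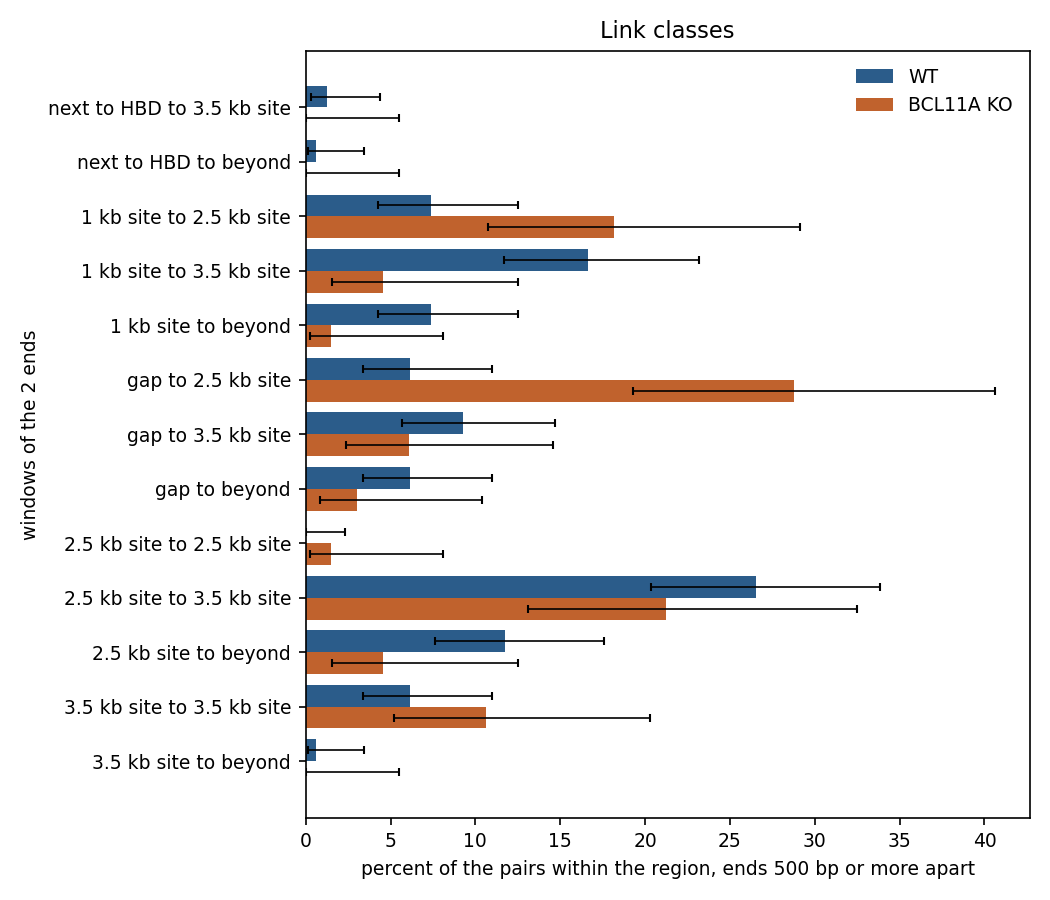
Share of the internal contacts in each link class in WT and BCL11A KO, with Wilson 95% intervals; the classes are named by the windows of the ends, and "beyond" is the far part. The gap to 2.5 kb site class stands at 6.17% in WT and 28.8% in BCL11A KO, and the 1 kb to 3.5 kb class at 16.7% and 4.55%.

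Contacts were fewer in KO at some anchors and about as many at others. Of 16 bins of 250 bp with 5 or more contacts in all, 4 differed as a share of internal contacts (25.0%), 2 in each direction. The bin from 3750 to 4000 bp upstream of *HBD* (chr11:5259463-5259712) held an end of 69 contacts in WT (42.6%, 35.2 to 50.3) and of 9 in KO (13.6%, 7.34 to 23.9; adjusted p = 0.000196, two-sided Fisher's exact test). The next bin outward (chr11:5259713-5259962) had 33 in WT (20.4%, 14.9 to 27.2) and 2 in KO (3.03%, 0.835 to 10.4; Fisher's exact test, adjusted p = 0.00248). Among contacts of 1000 bp or more no bin passed, and these bins had 63 and 32 contacts in WT against 9 and 2 in KO (Fisher's exact test, adjusted p = 0.799 and 0.467). With pairs of the same 100-bp bins counted once, these bins held 43 and 24 in WT against 8 and 2 in KO and did not pass either (Fisher's exact test, adjusted p = 0.364 and 0.194).

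Higher in share in KO was the bin from 2000 to 2250 bp (chr11:5257713-5257962), with 31 contacts in WT (19.1%, 13.8 to 25.9) and 33 in KO (50.0%, 38.3 to 61.7; Fisher's exact test, adjusted p = 0.000116). The bin from 1500 to 1750 bp (chr11:5257213-5257462) had 24 (14.8%, 10.2 to 21.1) and 22 (33.3%, 23.2 to 45.3; adjusted p = 0.0127, Fisher's exact test). The counts of these bins were about equal in the libraries. The end at chr11:5257743-5257784 lies in the bin from 2000 to 2250 bp and served 24 of its 33 KO contacts, against 9 of 31 in WT. Without the contacts of this end, left out after the values were seen, this bin held 22 contacts in WT and 9 in KO (Fisher's exact test, adjusted p = 0.669) and the bin from 1500 to 1750 bp 21 and 11 (adjusted p = 0.199). The outer bins kept their counts but no bin passed (Fisher's exact test, adjusted p = 0.0814 for each outer bin). With pairs of the same 100-bp bins counted once, the bin from 2000 to 2250 bp passed with 14 pairs in each library (Fisher's exact test, adjusted p = 0.0209), and the bin from 1500 to 1750 bp did not (19 and 8, adjusted p = 1.0). As shares of all pairs, again a denominator added after the values were seen, 3 of the 16 bins passed (18.8%), each lower in KO. They were both outer bins (Fisher's exact test, adjusted p = 1.59e-08 and 7.78e-06) and the bin from 1000 to 1250 bp, which had 18 contacts in WT and 3 in KO (adjusted p = 0.0366, Fisher's exact test). As a share of internal contacts the last bin did not pass (11.1% and 4.55%, Fisher's exact test, adjusted p = 0.389).

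**Figure D4:**
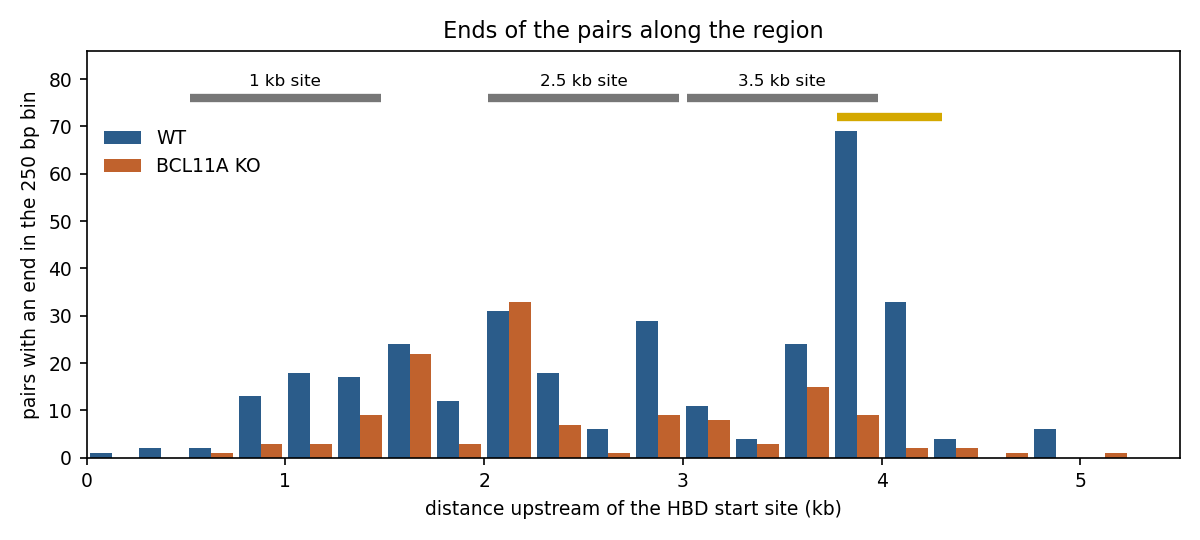
Internal contacts with an end in each 250 bp bin, by distance upstream of the *HBD* start site in kb, in WT and BCL11A KO. Grey bars mark the windows of the 3 sites and the yellow bar the GATC interval at the outer edge of the 3.5 kb site. The bins under the yellow bar hold 69 and 33 contacts in WT and 9 and 2 in BCL11A KO.

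Both outer bins belong largely to 1 GATC interval of 530 bp, called the outer interval here. It starts inside the window of the 3.5 kb site and runs past its edge. An end of 100 WT contacts lay in it (61.7%, 54.1 to 68.9), and an end of 9 KO contacts (13.6%, 7.34 to 23.9). Among 13 GATC intervals tested, a unit added after the files were seen, 2 differed (15.4%). This interval was lower in KO (adjusted p = 1.55e-10, two-sided Fisher's exact test). The interval at chr11:5257363-5257780, which runs from the gap into the 2.5 kb window, was higher in share, with 37 contacts in WT (22.8%, 17.0 to 29.9) and 40 in KO (60.6%, 48.5 to 71.5; Fisher's exact test, adjusted p = 6.05e-07). Without the contacts of the end at chr11:5257743-5257784, the outer interval still passed (65.4% of internal contacts in WT and 21.4% in KO, Fisher's exact test, adjusted p = 5.18e-06) and the other interval did not (18.3% and 38.1%, adjusted p = 0.0682). With pairs of the same 100-bp bins counted once, the outer interval passed (62.9% and 22.9%, Fisher's exact test, adjusted p = 0.000704). So did the other interval (24.8% and 54.3%, Fisher's exact test, adjusted p = 0.00964).

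Within the outer interval the WT ends were spread rather than stacked. The 100 ends had 86 different positions, and no position served more than 3 contacts. Their midpoints ran from 3783 to 4290 bp upstream of *HBD*, with a median of 3925.5 bp, and those of the 9 KO ends ran from 3808 to 4247 bp, with a median of 3909 bp. The partners of the WT contacts were spread too. The interval at chr11:5256553-5256935, in the 1 kb window, was the partner of 19 contacts in WT and 1 in KO. The interval at chr11:5257847-5258035, in the 2.5 kb window, was the partner of 15 and 2, and that at chr11:5257363-5257780 of 15 and 1. The interval at chr11:5256936-5257362 was the partner of 14 and 2, and that at chr11:5258416-5259280, which crosses from the 2.5 kb to the 3.5 kb window, of 13 and 0.

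Contacts that did not use the outer interval numbered 62 in WT and 57 in KO. They were 2.09% of all pairs in WT (1.63 to 2.67) and 2.47% in KO (1.91 to 3.18), intervals that overlap. Of the 62 and 57, 20 in WT and 35 in KO used the end most used in KO or another repeated end. The similar counts therefore rest in part on these repeated ends. Of the contacts of 1 kb or more, 95 of 123 used the outer interval in WT (77.2%, 69.1 to 83.8) and 9 of 25 in KO (36.0%, 20.2 to 55.5). This left 28 longer contacts without it in WT and 16 in KO, 0.944% (0.654 to 1.36) and 0.693% (0.427 to 1.12) of all pairs. The interval was picked for its WT count, so these values are a description and were not tested.

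The same interval served pairs that leave the region. It held an end of 598 of 951 leaving pairs in WT (62.9%, 59.8 to 65.9) and of 71 of 268 in KO (26.5%, 21.6 to 32.1). The share among WT leaving pairs was close to the 61.7% among WT internal contacts. No short pair of the region ended in it, 0 of 673 in WT (at most 0.568%) and 0 of 679 in KO (at most 0.563%, upper bounds of the Wilson intervals).

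**Figure D5:**
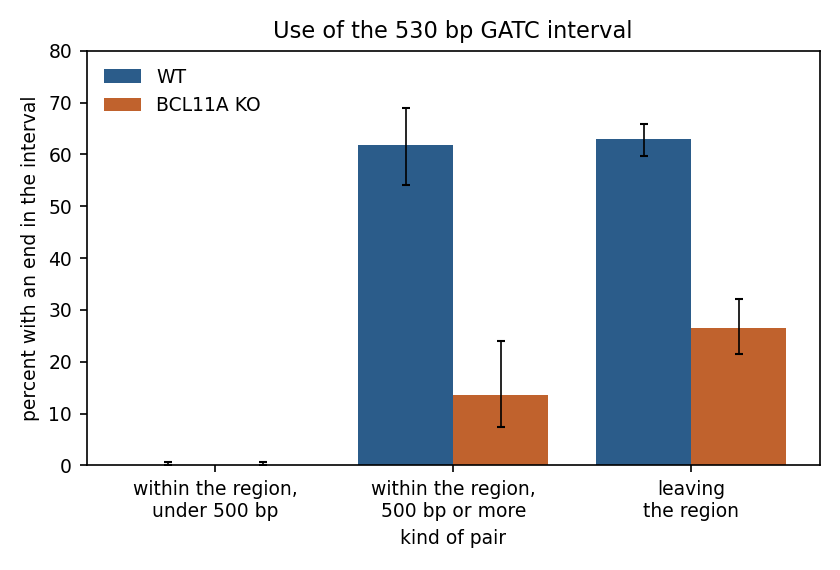
Percent of each kind of pair with an end in the GATC interval at the outer edge of the 3.5 kb site, in WT and BCL11A KO, with Wilson 95% intervals. The interval holds an end of 61.7% of internal contacts and 62.9% of leaving pairs in WT, against 13.6% and 26.5% in BCL11A KO, and of no short pair.

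Most ends were used once, 235 of 263 in WT (89.4%) and 79 of 87 in KO (90.8%). The most internal contacts at any end were 11 in WT and 24 in KO. The end at chr11:5257743-5257784, the first of the sequences above, served 9 internal contacts in WT (5.56%, 2.95 to 10.2) and 24 in KO (36.4%, 25.8 to 48.4). Its median contact was short, 554 bp in WT and 559.5 bp in KO, and 1 and 5 of its contacts reached 1 kb. Its partners in KO lay mainly in the gap (11 contacts) and the 1 kb window (10 contacts), and in WT in the 1 kb window (6 contacts). It was also an end of 286 short pairs in WT and 294 in KO. Without this end, 153 internal contacts remained in WT and 42 in KO, of which 122 and 20 were of 1 kb or more.

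The end at chr11:5257363-5257404 served 5 internal contacts in WT and 7 in KO, with medians of 2024 and 713 bp. The end at chr11:5257847-5257888 served 6 in WT, each of 1491 to 1904 bp and each reaching the 3.5 kb window or the far part, and 1 in KO. Contacts with at least 1 end exactly at a GATC were 58 of 162 in WT (35.8%) and 50 of 66 in KO (75.8%). Repeated ends weighed on these counts. The end most used in KO or another repeated end, both at a GATC, served 20 of the 58 in WT and 35 of the 50 in KO. Counted as distinct ends, 19 of 263 in WT and 11 of 87 in KO lay exactly at a GATC. The difference was not tested.

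Internal contacts of both libraries were compared base for base and by interval. Of the exact pairs, 4 were in both lists, 2.47% of WT and 6.06% of KO internal contacts. Their distances ran from 507 to 807 bp. The overlap of all distinct pairs was not counted, so whether the overlaps given here are particular to internal contacts is not known. The 146 contacts in WT and 53 in KO with ends in different GATC intervals made up 31 distinct interval pairs in WT and 20 in KO, of which 15 were in both (48.4% of WT and 75.0% of KO). The most used interval pair of KO joined chr11:5256936-5257362 and chr11:5257363-5257780, which are neighbours, with 10 contacts in WT and 21 in KO. Counted once per interval pair, with pairs inside 1 interval left out, internal contacts were no longer distinguishable as a share of all pairs counted in this way (ratio 0.896, Fisher's exact test, p = 0.775). With pairs inside 1 interval kept, a setting added after the values were seen, the ratio was 0.910 (32 and 21, Fisher's exact test, p = 0.780). Leaving out only the internal contacts inside 1 interval, with no collapse, gave a ratio of 0.466 (Fisher's exact test, p = 4.08e-07).

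Sequence features of the region were read from the same build. The study edited the locus in primary hematopoietic progenitors with a pair of guides that border the DNA between *HBD* and its 3.5 kb site.

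HBD gRNA (chr11:5255847-5255866, minus strand): ccaatctcagggcaagttaa
HBD-3.5kb gRNA (chr11:5259181-5259198, plus strand): ggtatgggaggtatacta

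Between these guides lay both ends of 26 internal contacts in WT and of 36 in KO. A single end lay between them for 135 contacts in WT and 30 in KO. The outer interval starts past the second guide, which is 3468 bp upstream of *HBD*.

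The letters TGACCA, the core of the motif bound by BCL11A, were searched on both strands. They occur 2 times in the region, at chr11:5258382-5258387 in the 2.5 kb window and at chr11:5259345-5259350 in the 3.5 kb window, which is 2 of 22 bins of 250 bp (9.09%). Of all 250-bp stretches of chromosome 11, 11.1% hold them. AGATAA, the core of the GATA factor motif, searched the same way, occurs 8 times in the region, in 36.4% of the bins, where 18.1% of stretches of the chromosome hold it. Of all 42-bp stretches in the region, 1.73% occur more than once on chromosome 11, and no end of an internal contact lies in them.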

How the data were processed

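CAPTURE-3C-seq lists of WT and BCL11A KO HUDEP-2 cells were used, 1 merged list per genotype. The authors aligned reads with Bowtie2 2.2.8 and used Picard, according to the submitters' processing notes, kept uniquely aligned reads (hg19), pooled 3 biological replicates and required a BF score of 20 or more. Per interaction, the authors deposited both end positions and the BF score. The single-replicate samples were not analysed here.

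Mirrored and repeated lines were collapsed: 6390 lines gave 2966 distinct pairs in WT, and 4844 gave 2310 in BCL11A KO. Each list breaks into 4 sorted parts without names, and all internal contacts were in the part whose pairs all had an end in the region. An end covered 42 bp and was placed by its midpoint. Transcripts came from GENCODE on GRCh37, whose chromosome 11 has the length of hg19. Fisher's exact test, two-sided, compared shares between the lists. Its p-values were adjusted within each family (Benjamini-Hochberg, threshold 0.05). Wilson and exact Poisson intervals are at 95%. Bins needed 5 contacts in both libraries together. Named items were the 3 sites, the links among them, other link classes and bins past the threshold (at most 5 per direction) and the 3 ends used by most contacts in each list. The outer GATC interval and its partners were chosen after their values were seen. The sequence of this interval and 1 of the repeated ends are not reported here. The region, sites and tests were chosen with earlier results of these data known. The test of link classes was run first on class counts drawn at random from the WT contacts, without a change and with a known change. These draws were independent, unlike pairs that share an end, and the other tests were not simulated. Python 3.11.15, numpy 2.4.6 and scipy 1.17.1 were used.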

Additional observations from a re-analysis of the deposited data

How the results depend on the processing

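No paired analysis was possible because the files used here hold 1 merged list per genotype. Replicates were not left out in turn, since the single-replicate samples were not analysed here. The lower share of internal contacts in BCL11A KO kept its direction and passed the threshold in every alternative run except when counted once per pair of GATC intervals, with a ratio of 0.896 without pairs inside 1 interval and of 0.910 with them. The main ratio was 0.523. It was 0.717 within the sorted part that holds the internal contacts (Fisher's exact test, p = 0.0176). With pairs that have an end in the region as the denominator it was 0.718 (Fisher's exact test, p = 0.0176). The comparison with pairs leaving the region reversed at 1000 bp or more (odds ratio 0.721). The numbers of classes past the threshold moved. For links, 1 class passed, against 0 at 1000 bp or more, without the end most used in BCL11A KO, with 100-bp bins counted once, with GATC interval pairs counted once and with contacts between site windows as the denominator, 3 with 0.5 kb windows, 3 with ends placed by their start (among them the links of the 1 kb site to the 2.5 kb and 3.5 kb sites), and 4 of all pairs. For distance classes, 2 passed, against 0 at 1000 bp or more and with GATC interval pairs counted once, and 1 without contacts that have no GATC between their ends or without the end most used in BCL11A KO. For bins, 4 passed, against 0 at 1000 bp or more, without the end most used in BCL11A KO and with GATC interval pairs counted once, 1 with 100-bp bins counted once (the bin from 2000 bp, so both outer bins lost their calls), 2 with GATC intervals as bins, and 1 such interval without that end. With 100-bp bins counted once, the outer GATC interval kept its call although the outer bins did not. Cutting the contacts to 1000 bp or more leaves 25 in BCL11A KO and removes the class that differed most, and collapsing to interval pairs leaves 31 and 20.

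Some single differences changed sign, none of them past the threshold in the alternative. The link of the 2.5 kb and 3.5 kb sites became higher in BCL11A KO by 4.42 percentage points at 1000 bp or more, by 5.71 with 100-bp bins counted once, by 2.41 with 0.5 kb windows and by 2.85 without the end most used in BCL11A KO. The link of the 1 kb and 3.5 kb sites became higher by 8.55 points with interval pairs counted once, and that of the 1 kb and 2.5 kb sites fell by 0.617 points with 0.5 kb windows. The class of 1 to 2 kb became higher by 12.8 points at 1000 bp or more and by 17.7 with interval pairs counted once. The bin from 1500 bp fell by 0.806 points with interval pairs counted once. The link of the gap and the 2.5 kb site lost its call in several alternatives, and read depth per pair is not known.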
